A study of Homo sapiens with 6 samples.

Results

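The genes described here are the 5 subunits of the transcription factor NF-κB (*NFKB1*, *NFKB2*, *RELA*, *RELB*, and *REL*) and 5 genes that NF-κB is known to induce and that encode neither cytokines nor chemokines (*NFKBIA*, *TNFAIP3*, *BIRC3*, *ICAM1*, and *TNFAIP2*). They were chosen by name and found by Ensembl identifier, and all 10 were present among the 29483 genes of the expression table. All 10 also reached the mean FPKM of 0.5 that was required for testing, as 13599 genes did. FPKM is the number of fragments of a gene divided by its length and by the fragments of its library.

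RNA was sequenced in 3 control and 3 case replicates of HK-2, an established cell line from the proximal tubule of the human kidney. Cells of both groups were kept in 25 mM HG medium, a model of hyperglycemia, for 7 days. In the case group, the medium then held 10 μM TEPP-46, a small molecule that activates the glycolytic enzyme PKM2, for 1 day, and in the control group it did not. No group in normal glucose was analysed here, so the values compare TEPP-46 with its absence under high glucose only. All replicates come from the same cell line, and the study describes them as independent and separately treated, so the P-values measure the spread between replicates of that line.

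NF-κB proteins bind DNA as dimers. In the canonical pathway, dimers such as p50 (from *NFKB1*) with RelA are held in the cytoplasm by IκB proteins until the IκB kinase (IKK) complex marks the inhibitors for destruction. In the non-canonical pathway, the kinase NIK (*MAP3K14*) leads to processing of the *NFKB2* product p100 into p52, which pairs with RelB. Several genes induced by NF-κB act back on it, among them *NFKB2*, *RELB*, *NFKBIA* (IκBα), and *TNFAIP3* (A20), and in kidney tubular cells the factor is known for driving adhesion molecules and chemokines during injury. These mRNA values do not measure protein, processing, or nuclear entry.

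κB sites are the short DNA elements that these dimers bind. The κB consensus was searched as GGGRNWYYCC, where R is A or G, N any base, W A or T, and Y C or T. Both strands of the RefSeq promoter windows were searched, which reach from 250 bases before to 50 bases after a start site (GRCh38.p14). Of the 10 genes, 9 had a window. A match was found for *NFKB1*, *NFKB2*, *REL*, *NFKBIA*, *TNFAIP3*, and *BIRC3*, which is 6 of 9, whereas 7.1% of all genes with a window had one. None was found for *RELA*, *ICAM1*, and *TNFAIP2* within these windows, and *RELB* had no window. Sites that depart from this pattern or lie outside the windows were not searched, so these genes may still have κB sites. The stretches below are shown because they place the letters of the matches beside genes that rose and genes that did not. They are written 5′ to 3′ on the strand of the gene, with the bases of every match in capitals. Where matches on opposite strands overlap, the capitals cover all of them, 2 for *REL* and 3 for the middle start of *NFKB2*.
NFKBIA: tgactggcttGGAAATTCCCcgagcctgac
NFKB2, middle start: aaacgtcatGGGAATTCCCCcctccgggg
NFKB2, downstream start: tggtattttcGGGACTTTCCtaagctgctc
NFKB1: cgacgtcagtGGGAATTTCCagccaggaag
REL: gtcagccgcGGGAAATTCCCctcccgcca
TNFAIP3: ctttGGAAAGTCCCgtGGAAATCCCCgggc
BIRC3: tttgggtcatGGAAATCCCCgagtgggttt

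The *NFKBIA* stretch lies on the minus strand at chr14:35404811-35404840, upstream of the gene, and its match ends 72 bases before the start site. The other stretches are on the plus strand. Those of *NFKB2* lie at chr10:102394462-102394490, within an exon of a longer transcript, and at chr10:102395674-102395703, of which 11 bases are exonic in some transcript and 19 intronic. Further matches were found before these *NFKB2* starts, at chr10:102394490-102394519 and chr10:102395519-102395548. The *NFKB1* stretch at chr4:102501300-102501329 and the *BIRC3* stretch at chr11:102317275-102317304 lie outside the annotated genes, with a second *BIRC3* match at chr11:102317339-102317368. The *REL* stretch at chr2:60881518-60881546 is exonic in a longer transcript, and that of *TNFAIP3* at chr6:137867188-137867217 covers the first 4 bases of the annotated gene. The most upstream *NFKB2* window, at chr10:102393860-102394159, held no match, nor did a second window of *NFKB1* at chr4:102501684-102501983. A match describes the letters of the window and is not evidence of binding in these cells.

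Whole reads recovered from the FPKM values summed to 18507977, 17801777, and 17260118 of control replicates 1, 2, and 3, and to 16599067, 15937869, and 15256253 in case replicates 1, 2, and 3. Every case library therefore had fewer recovered reads on genes than every control library. In the alignment statistics of the study, the numbers of mapped reads overlapped between the groups. There, the share of mapped reads in introns was highest in case replicates 2 and 3 and lowest in case replicate 1. What part these differences had in the comparisons was not tested. The case replicates also varied more, with a median SD between replicates of 0.19 on the log2 scale against 0.09 in the control group. On the first principal component of all tested genes, which held 37.2% of the variance, case replicate 2 scored 9.55, between the other case replicates (30.5 and 34.4) and the control replicates (-27.8 to -22.9). Calls of the named subunit, feedback, and pathway genes that change without this library are given with and without it. For the tests, FPKM was divided by a size factor per library, 0.1 was added, and the values were transformed to log2, so a fold change is on the scale of log2(scaled FPKM + 0.1) and understates changes of low genes.

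The cells were checked against marker genes. Of 7 epithelial markers, 6 had a mean FPKM of at least 1, and *KRT19* was the most abundant at 345.9. Of 10 proximal tubule markers, 8 were in the table and none reached a mean FPKM of 1, with *GGT1* highest at 0.162, so the defining transporters of the proximal tubule were near 0 in these cells. Leukocyte markers were also near 0, with *CD14* highest at 0.535, and so were endothelial markers (*CLDN5*, 0.0438) and fibroblast markers (*COL1A1*, 0.245). The summed FPKM of the epithelial markers was 927.5, 902.5, and 898.8 in the control libraries and 904.6, 722.5, and 822.2 in the case libraries. The leukocyte sum was 1.03, 0.651, and 1.006 against 0.359, 0.319, and 0.352. The proximal tubule sum was 0.467, 0.546, and 0.550 against 0.355, 0.325, and 0.413, and the fibroblast sum 0.454, 0.381, and 0.366 against 0.173, 0.285, and 0.298. These 3 low sums were lower in every case library, while the epithelial and endothelial sums overlapped between the groups, the latter at 0.113, 0.247, and 0.0688 against 0.153, 0.0380, and 0.0650. One epithelial and 1 leukocyte marker fell: *CDH1* (log2 fold change -0.64, limma, adjusted p = 0.0156) and *CD14* (-1.24, limma, adjusted p = 0.0384). *CD14* met the required mean FPKM of 0.5 only because of its control libraries, with means of 0.806 (control) and 0.264 (case). It had 7 to 31 reads per library. The part of such shifts in the results that follow was not tested. In RNA of whole cultures, fewer cells that express a gene and less of its RNA per cell cannot be told apart.

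After TEPP-46, 4 of the 10 genes were upregulated DE genes, namely *RELB*, *NFKB2*, *ICAM1*, and *NFKBIA*, by between 1.37-fold and 1.58-fold on the scaled values. No gene of the 10 was called as downregulated by limma. However, 1 (*REL*) was lower at an unadjusted p under 0.05 and was called by voom on the recovered reads. *REL* passed the filter on mean FPKM only through the control libraries. A DE gene has an adjusted p of at most 0.05 by limma, with the adjustment by Benjamini-Hochberg over all tested genes, of which 7.34% were upregulated and 5.84% were downregulated DE genes. In the FPKM as deposited, every case value was above every control value in 5 of the 10 genes, where 14.2% of all tested genes showed this, and below in 2, where 26.3% did. The median log2 fold change of the 10 genes was 0.26, and that of all tested genes was -0.00167.

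**Figure D1:**
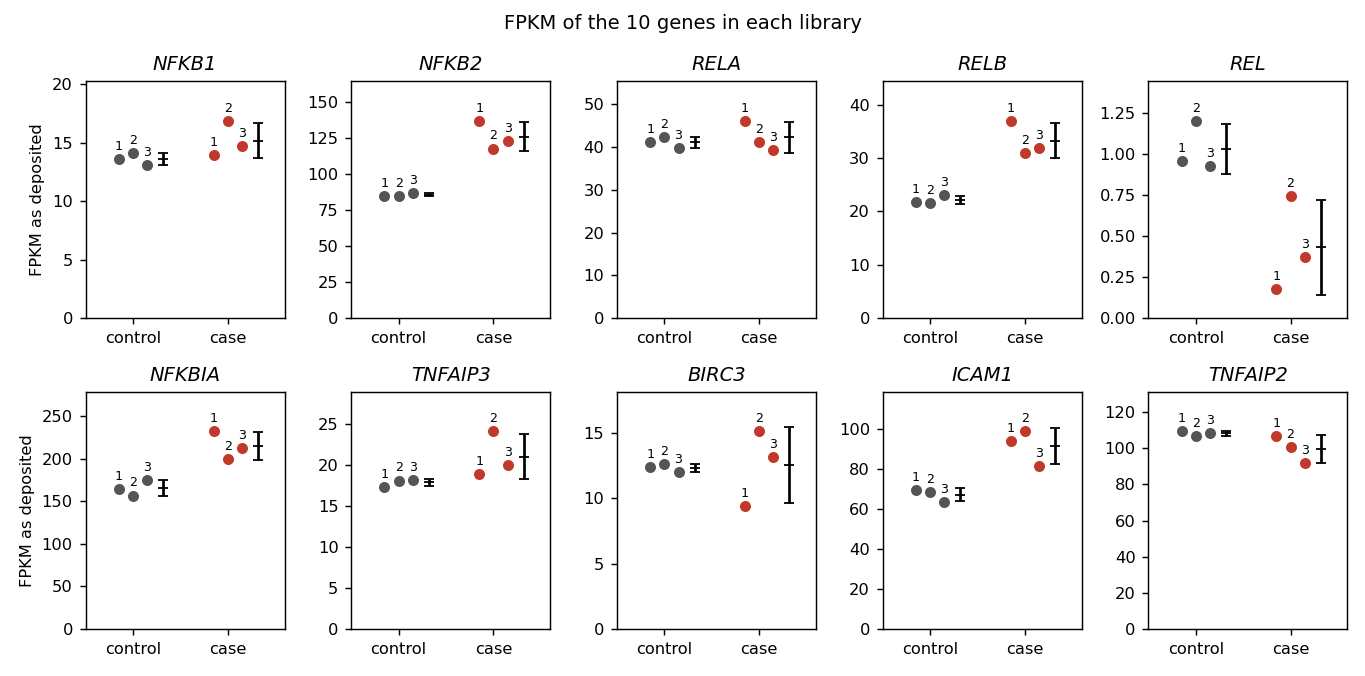
FPKM as deposited (y axis, from 0) of each of the 10 genes in the 3 control (grey) and 3 case (red) libraries, numbered by replicate, with bars for the mean ± SD. *NFKB2*, *RELB*, *NFKBIA*, *TNFAIP3*, and *ICAM1* were higher in every case library than in any control library, *REL* and *TNFAIP2* were lower, and the groups overlapped in *NFKB1*, *RELA*, and *BIRC3*.

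Among the subunits, both genes of the non-canonical dimer rose. *NFKB2* (ENSG00000077150, chromosome 10 from 102394110 to 102402524) encodes p100, the precursor of p52. Its FPKM was 85.2, 85.2, and 87.0 in control replicates 1, 2, and 3, respectively, and 137.4, 117.9, and 123.4 in case replicates 1, 2, and 3. The control values lay within 2 FPKM of each other, and the lowest case value was well above them. The mean FPKM as deposited rose from 85.8 ± 1.04 to 126.2 ± 10.0 (SD, n = 3 each), and on the scaled values of the test the change was 1.55-fold (log2 fold change 0.63, standard error 0.09, limma, adjusted p = 0.0124), on 6782 to 10295 reads per library.

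*RELB* (ENSG00000104856, chromosome 19 from 45001461 to 45038192) encodes the subunit that pairs with p52 and p100. Its FPKM was 21.7, 21.6, and 23.1 in the control libraries and 37.01, 30.84, and 31.96 in the case libraries. The groups did not overlap, and case replicate 1 was the highest library, as it was for *NFKB2*. The mean rose from 22.2 ± 0.80 to 33.3 ± 3.29 as deposited (SD, n = 3 each), a 1.58-fold change on the scaled values (log2 fold change 0.66, standard error 0.10, limma, adjusted p = 0.0140). Leaving out any control replicate or case replicate 3 ended the call of both genes. In these fits 0.507% to 1.41% of all tested genes were DE genes of either direction, against 13.2% with all libraries. The adjusted p by limma was then 0.0516 to 0.0712 for *NFKB2* and 0.0540 to 0.0743 for *RELB*, with log2 fold changes of 0.62 to 0.65 and 0.64 to 0.69.

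The canonical subunits were not DE genes. *RELA* (ENSG00000173039, chromosome 11 from 65653599 to 65663090, minus strand) encodes p65, the main activating subunit. Its FPKM was 41.2, 42.4, and 39.7 in the control libraries and 46.2, 41.3, and 39.3 in the case libraries, so that both the highest and the lowest library belonged to the case group. With a log2 fold change of 0.11, it was not called (95% interval -0.11 to 0.33, limma, adjusted p = 0.439). The antisense gene *RELA-DT* overlaps it, and without strand information their reads cannot be told apart.

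*NFKB1* (ENSG00000109320, chromosome 4 from 102501330 to 102617302) encodes p105, the precursor of p50. It had FPKM values of 13.59, 14.15, and 13.05 in the control libraries and 13.9, 16.9, and 14.7 in the case libraries. Case replicate 1 lay inside the control range as deposited and above it after scaling. Its log2 fold change of 0.23 (95% interval 0.03 to 0.42, standard error 0.08) did not pass the threshold (limma, adjusted p = 0.105). The value depended on the scaling, with 0.15 for FPKM as deposited and 0.03 with TPM, each library rescaled to the same FPKM sum (limma, adjusted p = 0.286 and 0.853). In these settings the median of all tested genes was -0.08 and -0.19.

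*REL* (ENSG00000162924, chromosome 2 from 60881491 to 60931612) encodes c-Rel, a subunit best known from lymphocytes. It was the least abundant of the 10 genes, with FPKM values of 0.958, 1.205, and 0.930 in the control libraries and 0.175, 0.747, and 0.370 in the case libraries. These stand for 201, 243, and 182 reads against 33, 135, and 64. Every case value was below every control value, but the case values differed more than 4-fold among themselves. The log2 fold change was -1.17 (95% interval -2.09 to -0.26, standard error 0.40, limma, adjusted p = 0.0855). At this low level the value depended on the pseudocount, with -0.50 at a pseudocount of 1 and -1.38 at 0.01 (limma, adjusted p = 0.0665 and 0.0885). By voom on the recovered reads, *REL* was a downregulated DE gene (log2 fold change -1.40, adjusted p = 0.0106), as it was by limma without case replicate 2 (-1.57, adjusted p = 0.0187). In these settings 11.1% and 12.4% of all tested genes were downregulated DE genes. With means of 1.03 (control) and 0.431 (case), *REL* reached the required mean FPKM of 0.5 only through its control libraries. When no minimum was set, *REL* was not called (-1.16, limma, adjusted p = 0.203). It was not tested when the minimum was raised to 1. Of the genes annotated within its span on the same strand, the small RNA pseudogene *RNU4-51P* may share reads with it.

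**Figure D2:**
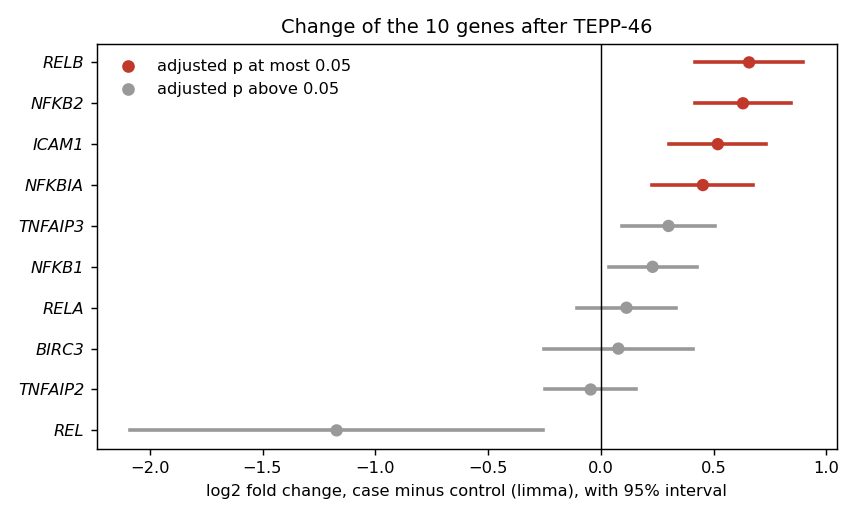
Log2 fold change of each gene (x axis, case minus control, limma) with its 95% interval, in red for adjusted p at most 0.05 and in grey above it. *RELB* (0.66), *NFKB2* (0.63), *ICAM1* (0.52), and *NFKBIA* (0.45) lie to the right of 0, and *REL* (-1.17) has the widest interval.

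FPKM is per length, so the 5 subunits can be set beside each other within a library. *NFKB2* made up 52.4% ± 0.687 (SD, n = 3) of the summed subunit FPKM in control libraries and 58.1% ± 1.10 in case libraries. The share of *RELA* was 25.1% ± 0.786 and 19.4% ± 0.603, and that of *RELB* was 13.5% ± 0.495 and 15.3% ± 0.460. For each of these 3 genes the case and control shares did not overlap. *NFKB1* held 8.30% ± 0.316 and 7.02% ± 1.10, with case replicate 2 (8.13%) inside the control range, and *REL* held 0.629% ± 0.0889 and 0.204% ± 0.145. Shares within a library do not depend on a scaling factor per library, and a larger share of one gene lowers those of the others.

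The ratio of *RELB* to *RELA* was 0.528, 0.510, and 0.581 in the control libraries and 0.801, 0.747, and 0.813 in the case libraries. That of *NFKB2* to *NFKB1* was 6.27, 6.02, and 6.67 against 9.86, 6.99, and 8.40. Both ratios of a non-canonical to a canonical subunit were higher in every case library. Case replicate 2 had the lowest of the case ratios in each. On the log2 scale of the tests, the change of *NFKB2* over *NFKB1* was 0.40. It was 0.21 after a correction of each library for annotated exon length, chosen after the data had been seen. For *RELB* over *RELA* these values were 0.54 and 0.40. The annotated exon length need not be the length behind the FPKM.

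**Figure D3:**
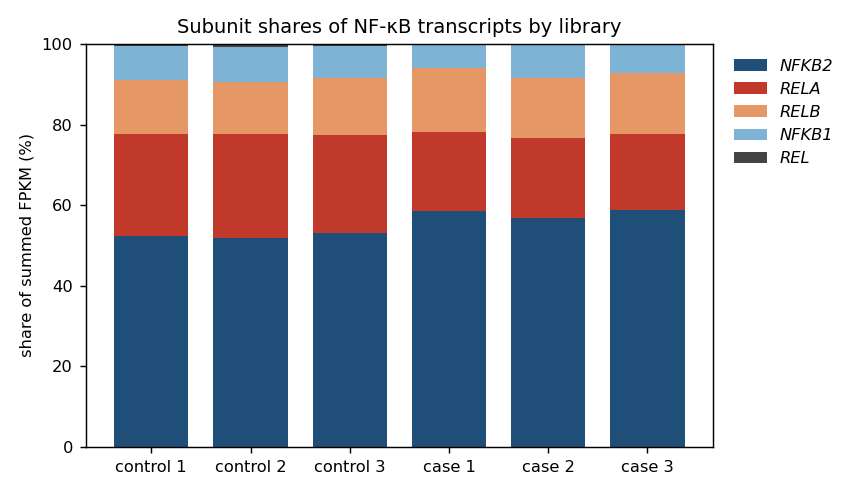
Share of each subunit in the summed FPKM of the 5 subunits (y axis, %) in each of the 6 libraries. *NFKB2* held 52.4% on average in the control libraries and 58.1% in the case libraries, and *RELA* held 25.1% and 19.4%.

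Of the 5 induced genes, 2 were upregulated DE genes. *NFKBIA* (ENSG00000100906, chromosome 14 from 35401079 to 35404749, minus strand) encodes IκBα, the inhibitor that returns NF-κB to the cytoplasm. It was the most abundant of the 10 genes in both groups. Its FPKM was 164.7, 156.7, and 174.9 in the control libraries and 232.16, 200.03, and 212.25 in the case libraries. The groups did not overlap, with a gap between control replicate 3 and case replicate 2. Its mean rose from 165.4 ± 9.12 to 214.8 ± 16.2 as deposited (SD, n = 3 each), a 1.37-fold change on the scaled values (log2 fold change 0.45, standard error 0.10, limma, adjusted p = 0.0259). The call ended without any control replicate or case replicate 3 (limma, adjusted p = 0.0860 to 0.124, log2 fold change 0.41 to 0.49), where 0.507% to 1.41% of all tested genes were DE genes. It also ended with no filter on low values (0.47, limma, adjusted p = 0.0811) and without the intensity trend (0.45, limma, adjusted p = 0.0600). The log2 fold change was smaller after quantile normalization (0.23, limma, adjusted p = 0.0294) and with TPM (0.25, limma, adjusted p = 0.0368), where the median of all tested genes was -0.19.

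*ICAM1* (ENSG00000090339, chromosome 19 from 10271093 to 10286615) encodes an adhesion molecule that binds leukocyte integrins. Its FPKM was 69.9, 68.4, and 63.7 in the control libraries and 94.3, 99.1, and 81.8 in the case libraries. Every case library was higher, case replicate 3 least so. Its mean rose from 67.3 ± 3.21 to 91.7 ± 8.94 as deposited (SD, n = 3 each), a 1.43-fold change on the scaled values (log2 fold change 0.52, standard error 0.09, limma, adjusted p = 0.0177). Its call ended when any control replicate was left out (limma, adjusted p = 0.0742 to 0.0860, log2 fold change 0.48 to 0.55), where 0.507% to 0.771% of all tested genes were DE genes. It also ended after quantile normalization (0.36, limma, adjusted p = 0.0513). Its log2 fold change with TPM was 0.32 (limma, adjusted p = 0.0488), where the median of all tested genes was -0.19. The antisense genes *ICAM4-AS1* and *LIMASI* overlap it.

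The other 3 induced genes were not DE genes. *TNFAIP3* (ENSG00000118503, chromosome 6 from 137867214 to 137883314) encodes A20, a ubiquitin-editing enzyme that shuts off signaling upstream of IKK. Its FPKM was 17.4, 18.1, and 18.2 in the control libraries and 18.93, 24.16, and 20.04 in the case libraries, higher in every case library. The log2 fold change of 0.30 (95% interval 0.09 to 0.51, standard error 0.09) did not pass the threshold (limma, adjusted p = 0.0629). It did by voom (adjusted p = 0.0397) and, by limma, without case replicate 1 (0.35, adjusted p = 0.0377), settings in which 9.54% and 8.92% of all tested genes were upregulated DE genes. With TPM the log2 fold change was 0.10, where the median of all tested genes was -0.19. The antisense gene *WAKMAR2* overlaps it.

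*BIRC3* (ENSG00000023445, chromosome 11 from 102317484 to 102339403) encodes cIAP2, a ubiquitin ligase of the TNF receptor complex. Its FPKM was 12.4, 12.6, and 12.0 in the control libraries and 9.42, 15.2, and 13.2 in the case libraries. The control values were close together, whereas the case values lay on both sides of them. Its log2 fold change was 0.08 (95% interval -0.25 to 0.41, limma, adjusted p = 0.742).

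*TNFAIP2* (ENSG00000185215, chromosome 14 from 103121476 to 103137439) encodes a protein induced by tumor necrosis factor. Its FPKM was 109.5, 107.1, and 108.4 in the control libraries and 107.0, 100.5, and 91.7 in the case libraries. The case values were lower without overlap as deposited, but the groups overlapped after scaling. Its log2 fold change was -0.05 (95% interval -0.25 to 0.16, limma, adjusted p = 0.756). With TPM it was -0.24 (limma, adjusted p = 0.0501), where the median of all tested genes was -0.19. After quantile normalization it was -0.22 (limma, adjusted p = 0.0617), where that median was -0.00366. Neither passed the threshold. Antisense genes overlap both *BIRC3* and *TNFAIP2* (ENSG00000288528, and *LINC00677* with ENSG00000289917).

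In the control libraries, the genes in order of FPKM were *NFKBIA*, *TNFAIP2*, *NFKB2*, *ICAM1*, *RELA*, *RELB*, *TNFAIP3*, *NFKB1*, *BIRC3*, and *REL*, and no neighbours in this order had overlapping values. In case libraries *NFKB2* stood before *TNFAIP2* and the order was otherwise the same. The values of *TNFAIP2* and *ICAM1* overlapped there, as did those of *NFKB1* and *BIRC3*.

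The 10 genes differed in which case replicate was highest. On the scaled log2 values, case replicate 1 was above case replicate 2 in the 6 genes whose transcripts had a mean GC content of at least 53.1% (*NFKBIA*, *ICAM1*, *TNFAIP2*, *NFKB2*, *RELA*, and *RELB*), by 0.03 to 0.36. It was below in the 4 genes with at most 48.4% (*TNFAIP3*, *NFKB1*, *REL*, and *BIRC3*), by 0.18 for *NFKB1*, 0.25 for *TNFAIP3*, 0.58 for *BIRC3*, and 1.56 for *REL*. Case replicates 1 and 2 also differed in this way over all genes. Across the 13489 genes with a GC value, the rank correlation between GC content and the difference from the control mean was 0.33 in case replicate 1, -0.21 in case replicate 2, and -0.09 in case replicate 3. These genes come from the same libraries and are not independent replicates.

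After a GC correction of each library, chosen after the data had been seen, 6 of the 10 genes were upregulated DE genes, where 13.3% of all genes tested in this way were. *NFKB2* (log2 fold change 0.66), *RELB* (0.67), *ICAM1* (0.54), and *NFKBIA* (0.43) were again among them, and their adjusted p by limma was between 0.00117 and 0.0106. The 2 others were *TNFAIP3* (0.27, limma, adjusted p = 0.0328) and *BIRC3* (0.25, limma, adjusted p = 0.0382), 2 of the genes with low GC content. Neither of these 2 was called with a replicate block added to the GC correction (limma, adjusted p = 0.0514 and 0.0644). For *REL* the log2 fold change was -1.09 with the GC correction alone (limma, adjusted p = 0.0542).

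Gene length was related to the difference between the groups as well. The rank correlation between exon length and the difference from the control mean, across the same genes, was -0.39, -0.14, and -0.32 in case replicates 1, 2, and 3, so longer genes tended to lower values in each case library. By the exons annotated in GENCODE v44, *REL* and *NFKB1* were among the longest tested genes, at percentiles 97.0 and 96.1 of length. These lengths need not be those behind the deposited FPKM. In control replicate 1, *NFKB1* had 1585 recovered reads at an FPKM of 13.59, and *TNFAIP3* had 1636 at 17.4. Their annotated exon lengths, 15679 and 6443 bases, differ far more, so the FPKM did not rest on both of them. The length-corrected value of *NFKB1* depends on its annotated length. With the length correction, 6 of the 10 genes were upregulated DE genes, where 6.76% of all genes tested in this way were. *NFKB2* (log2 fold change 0.66), *RELB* (0.55), *ICAM1* (0.44), and *NFKBIA* (0.37) kept their calls, with adjusted p by limma from 0.0115 to 0.0278. *NFKB1* (0.45, limma, adjusted p = 0.0144) and *TNFAIP3* (0.37, limma, adjusted p = 0.0253) were the others, and *REL* was at -0.94 (limma, adjusted p = 0.109). *BIRC3* was called with the GC correction and not with the length correction (0.18, limma, adjusted p = 0.343).

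**Figure D4:**
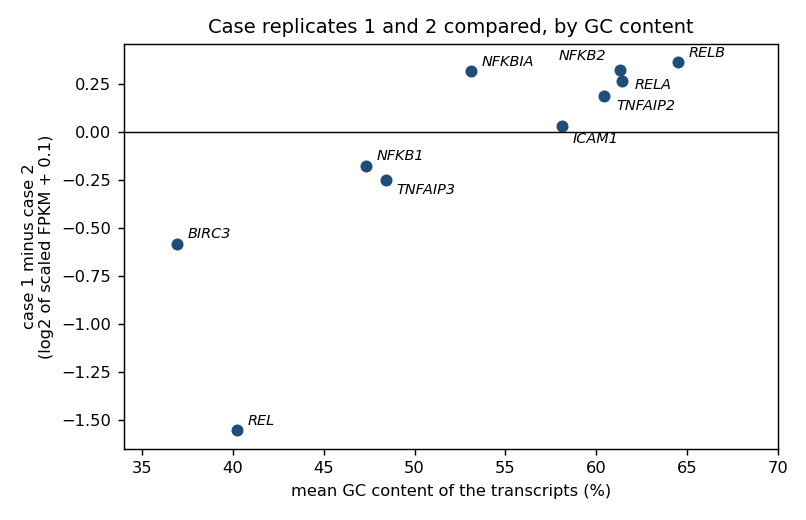
Difference between case replicates 1 and 2 (y axis, log2 of scaled FPKM + 0.1) of the 10 genes against the mean GC content of their transcripts (x axis, %). The 6 genes at 53.1% and above lie above 0, and the 4 genes at 48.4% and below lie under 0, with *REL* lowest at -1.56.

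Other genes of the pathway were read from the same fit in 6 lists by role, with 82 genes listed, 80 found in the table, and 67 tested. Of these, 21 were upregulated and 1 was a downregulated DE gene, where 13.2% of all tested genes were DE genes of either direction. The calls lay mostly among the target genes. In the list of other IκB proteins and regulators of the subunits, 2 of 7 rose and none fell (0 by voom as well, and 0 by the unadjusted p under 0.05), with a median log2 fold change of 0.24. *NFKBIE*, which encodes IκBε, rose from an FPKM of 35.0 ± 1.76 to 51.1 ± 7.07 (log2 fold change 0.61, limma, adjusted p = 0.0221), and *COMMD1*, whose product promotes the removal of RelA from chromatin, rose by 0.45 (limma, adjusted p = 0.0366). *COMMD1* was not called with TPM (0.25, limma, adjusted p = 0.0897) or with the length correction (0.30, limma, adjusted p = 0.0551). Values were 0.22 for *NFKBIB* and 0.07 for *BCL3*, neither of them a DE gene, but *NFKBIB* was one without case replicate 2 (0.33, limma, adjusted p = 0.0270) and with the GC correction (0.24, limma, adjusted p = 0.0461).

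Of the 14 genes of the IKK complex and its upstream kinases, none was a DE gene by limma as scaled here or by voom, and 1 (*MAP3K3*) was lower at an unadjusted p under 0.05. Other settings of limma gave a few calls, with 1 upregulated gene and 1 downregulated gene with the GC correction, 1 upregulated gene with the length correction, 1 downregulated gene after quantile normalization, 2 downregulated genes with TPM, 1 upregulated and 2 downregulated genes without case replicate 1, and 1 downregulated gene without case replicate 2. In these settings, in the same order, 24.5%, 11.5%, 13%, 20.4%, 16.8%, and 25.7% of all tested genes were DE genes of either direction. With TPM, 2387 of the 13599 tested genes were downregulated DE genes. By limma as scaled here, the median log2 fold change of the 14 genes was -0.03. *MAP3K14*, which encodes the kinase of the non-canonical pathway, had FPKM values of 11.7, 12.1, and 11.7 in the control libraries and 12.8, 11.7, and 10.4 in the case libraries, with overlapping groups (log2 fold change 0.05, standard error 0.10). *IKBKE* had a log2 fold change of 0.17 and *IRAK1*, the most abundant of the list, one of -0.23 (limma, adjusted p = 0.343 and 0.205). As deposited, *IRAK1* was lower in every case library, at 184.1, 152.5, and 140.4 against 194.4 to 197.2, but the groups overlapped after scaling. It passed the threshold without case replicate 1 (-0.37, limma, adjusted p = 0.016), after quantile normalization (-0.46), and with TPM (-0.43, where the median of all tested genes was -0.19).

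Receptors and adaptors were tested for 15 of 18 genes, of which 2 rose and none fell (0 by voom, and 1 was lower at an unadjusted p under 0.05). This share of DE genes, 13.3%, was close to the 13.2% among all tested genes. *TNFRSF12A*, the receptor of the cytokine TWEAK, rose from 161.7 ± 4.47 to 206.7 ± 13.7 (log2 fold change 0.43, limma, adjusted p = 0.0233), but was not called after quantile normalization (0.20, limma, adjusted p = 0.0599). *BIRC2*, which encodes cIAP1 and is the chromosomal neighbour of *BIRC3*, had FPKM values of 17.5, 16.3, and 16.0 in the control libraries and 19.699, 30.003, and 28.509 in the case libraries (log2 fold change 0.70, limma, adjusted p = 0.0213), and was not called with TPM (0.50, limma, adjusted p = 0.0591). Case replicate 1 was the lowest case library for both neighbours. The tumor necrosis factor receptor *TNFRSF1A* (0.18) and the lymphotoxin receptor *LTBR* (0.15) were not DE genes. *TLR4* was listed at 0 in every library.

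Among ubiquitin-editing genes and related brakes, 11 of 13 were tested. *RBCK1* and *RNF31*, which encode the subunits HOIL-1 and HOIP of the linear ubiquitin ligase complex, moved in opposite directions. *RBCK1* rose from 67.6 ± 2.49 to 99.3 ± 2.89 (log2 fold change 0.63, limma, adjusted p = 0.0078). *RNF31* was at 3.21, 3.24, and 3.51 in the control libraries and 2.03, 2.35, and 1.53 in the case libraries, a log2 fold change of -0.67 (limma, adjusted p = 0.0329). Its call ended with no filter on low values (limma, adjusted p = 0.0937) and without the intensity trend (0.0570). It also ended without any control replicate or case replicate 3 (limma, adjusted p = 0.0728 to 0.119, log2 fold change -0.69 to -0.50). *RNF31* overlaps the antisense gene *PSME2*, whose reads cannot be told apart from its own without strand information. The A20-binding genes *TNIP1* (0.23) and *TNIP2* (0.38) were not DE genes, but both were with the GC correction (0.24 and 0.40, limma, adjusted p = 0.0257 and 0.0316). That correction raised the upregulated DE genes of the list from 1 to 5, and those of all tested genes from 7.34% to 13.3%.

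In the list of other targets that are not cytokines, 12 of 17 genes were tested, *SOD2* and *SELE* were not analysed here, and *VCAM1* was listed at 0 in every library. Of the 12, 9 rose and none fell (0 by voom as well, and 0 by the unadjusted p under 0.05), with a median log2 fold change of 0.48. *GADD45B*, a stress-response gene, rose from 36.8 ± 1.36 to 67.8 ± 6.32 (0.95, limma, adjusted p = 0.00477). *CD83* (0.76), the transcription factor *IRF1* (0.72), and the early response gene *IER3* (0.69) followed, and then *TRAF1* (0.54), the adhesion gene *NINJ1* (0.50), and *PLAU* (0.46), which encodes urokinase. *BCL2L1* (0.34) and *BCL2A1* (0.33), both encoding survival proteins of the BCL-2 family, passed narrowly (limma, adjusted p = 0.0488 and 0.0496). Neither was called with FPKM as deposited, after quantile normalization, with TPM (0.14 for each), with the length correction, or without any control replicate or case replicate 3, where the adjusted p by limma was 0.0525 to 0.383. *BCL2L1* was also not called without case replicate 1 (0.31, limma, adjusted p = 0.0648), nor *BCL2A1* without case replicate 2 (0.32, limma, adjusted p = 0.0585). *TRAF1* was not called with TPM (0.34, limma, adjusted p = 0.0770).

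Cytokine and chemokine genes were tested for 8 of 13, of which 7 rose and none fell (0 by voom as well, and 0 by the unadjusted p under 0.05), with a median log2 fold change of 0.91. *CSF2* had FPKM values of 12.2, 10.8, and 13.9 in the control libraries and 35.6, 31.3, and 39.0 in the case libraries (log2 fold change 1.59, limma, adjusted p = 0.0017). *CXCL3* (1.36), *CXCL2* (1.06), *CCL20* (1.04), *CXCL1* (0.78), *CXCL8* (0.59), and *LIF* (0.39) rose as well. *CXCL8* (0.34, limma, adjusted p = 0.0586) and *LIF* (0.27, limma, adjusted p = 0.0517) were not called after quantile normalization, nor was *LIF* with TPM (0.19, limma, adjusted p = 0.120). *IL6* did not pass (-0.07, 95% interval -0.43 to 0.29, limma, adjusted p = 0.780), and *CCL2* was listed at 0 in every library.

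**Figure D5:**
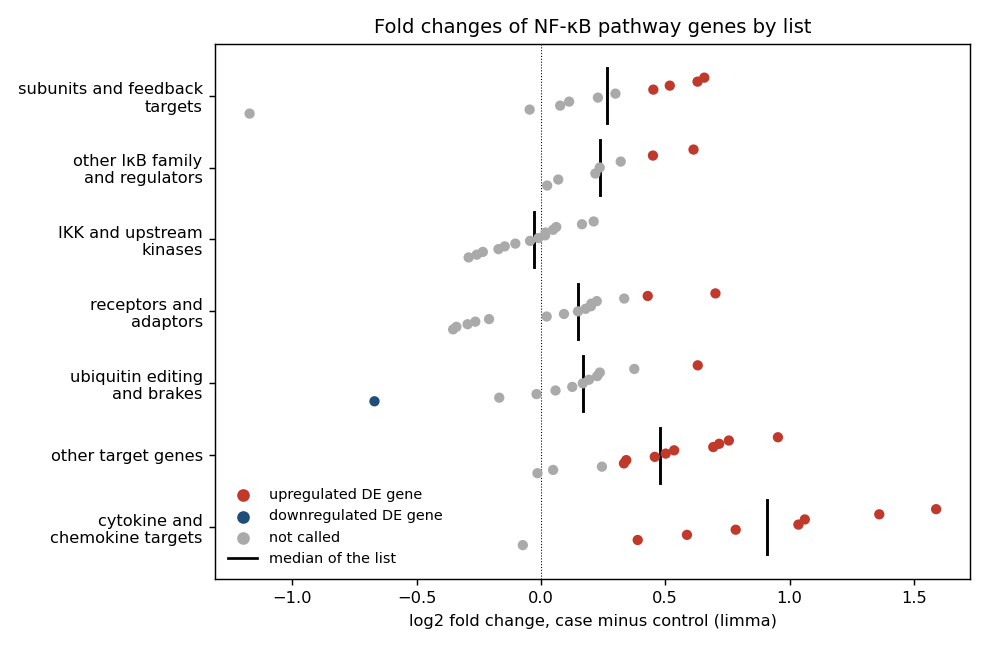
Log2 fold change (x axis, case minus control, limma) of each tested gene in the subunit and feedback genes and in 6 further lists of the pathway, in red for upregulated DE genes, blue for downregulated DE genes, and grey for genes not called, with a black line at the median of the list. The medians run from -0.03 in the kinases to 0.48 in the other target genes and 0.91 in the cytokine and chemokine genes.

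Of the 22 DE genes in these 6 lists, 6 were DE genes without each of the 6 libraries in turn, namely *CSF2*, *CXCL1*, *CXCL2*, *CXCL3*, *CCL20*, and *GADD45B*. In 4 of these settings far fewer genes of the whole table were called. Of all tested genes, 0.771%, 0.507%, and 0.640% were DE genes of either direction without control replicates 1, 2, and 3, and 16.8%, 25.7%, and 1.41% without case replicates 1, 2, and 3, against 13.2% with all libraries. The number of upregulated DE genes in the lists was 8, 7, and 6 without control replicates 1, 2, and 3, and 9 without case replicate 3. Leaving out case replicate 1 or case replicate 2 gave 22 in each case. In the promoter windows, a κB match was found for 20 of the 71 genes of the lists with a window (28.2%), for 6 of 17 upregulated DE genes (35.3%), and for 11 of 41 tested genes that were not called (26.8%).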

How the data were processed

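The authors filtered the reads of 6 libraries, aligned them to GRCh38.p13 with HISAT2 (version 2.1.0), counted them on genes with HTSeq (version 0.6.0), and deposited FPKM values of 29483 genes. Strandedness and RNA selection are not given in the sources used here. Whole reads were recovered from exact ratios of the FPKM values between libraries for all 27922 genes above 0, within a tolerance of 0.02. A factor common to all libraries cannot be seen in such ratios, and for 1679 genes the exon length was used to set it.

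For testing, each library was scaled by its median-of-ratios factor, and log2 values (pseudocount 0.1) of the 13599 genes whose mean FPKM reached 0.5 were tested in R 4.3.3 with limma 3.58.1 (intensity trend, no covariates). The adjustment of P-values (Benjamini-Hochberg) ran over all tested genes. The procedure was also run on simulated reads with the same dispersion for all genes and both groups and no GC or length trend. These libraries differ from that setting, so the run does not show how the procedure performs on them. Symbols, positions, exon lengths, and GC content came from GENCODE v44, and promoter windows from RefSeq.

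The genes named are the 10 genes, every DE gene and the 3 most abundant genes of each pathway list, and the 5 genes most correlated with *NFKBIA*. *MAP3K3*, *IL6*, the genes listed at 0, and the markers named fall outside this rule and were picked with their values known. The 10 genes and all lists were chosen with earlier results of these data known. Alternatives were other pseudocounts, filters, scalings, and variance priors, a replicate block, voom on recovered reads, leaving out each library, and, chosen after the data were seen, corrections for GC content and length.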

Additional observations from a re-analysis of the deposited data

How the results depend on the processing

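The log2 fold changes of *NFKB2*, *RELB*, *NFKBIA*, and *ICAM1* stayed above 0 in all 20 alternatives. Their calls ended without any control replicate and, except for *ICAM1*, without case replicate 3. In these fits 0.507% to 1.41% of all tested genes were DE genes of either direction, against 13.2% with all libraries. Of the 10 genes, 4 were upregulated DE genes with all libraries, 0 to 5 with 1 library left out, 3 after quantile normalization, without the intensity trend, or with no filter on low values, and 5 by voom. Downregulated DE genes among them numbered 0 to 1 with 1 library left out and 1 by voom. That gene was *REL*, which passed the filter only through the control libraries. *NFKBIA* was lost with no filter (adjusted p = 0.0811) and without the trend (0.06), and 6 of the 10 genes were upregulated with the GC correction and 6 with the length correction. Over all tested genes, there were 998 upregulated and 794 downregulated DE genes, 55 to 1813 and 14 to 1682 with 1 library left out, 347 and 177 with no filter, 433 and 414 without the trend, 662 and 1124 with FPKM as deposited, 383 and 2387 with TPM, 1791 and 1514 with the GC correction, and 1510 downregulated by voom. The median log2 fold change of all tested genes was -0.19 with TPM and -0.08 as deposited. The 21 upregulated and 1 downregulated DE genes of the pathway lists became 6 to 22 and 0 to 4 with 1 library left out, 11 and 0 with no filter, and 13 and 0 without the trend. In these lists, 19 genes were upregulated and 2 downregulated with FPKM as deposited, 16 and 2 after quantile normalization, 15 and 4 with TPM, and 30 and 3 with the GC correction. The sign turned in genes that were not called. With TPM, the log2 fold change was -0.086 for *RELA*, -0.12 for *BIRC3*, -0.13 for *BCL3*, -0.033 for *IKBKE*, -0.15 for *MAP3K14*, -0.020 for *TNFRSF1A*, and -0.050 for *LTBR*. As deposited it was -0.00694 for *BCL3* and -0.027 for *MAP3K14*, and *BCL3* was at -0.039 after quantile normalization and -0.035 after the length correction. With 1 library left out, it ran from -0.046 (without case replicate 2) to 0.25 for *BIRC3*, from -0.12 to 0.020 (without case replicate 3) for *TNFAIP2*, and from -0.044 (without case replicate 1) to 0.13 for *MAP3K14*. The cause of these changes was not tested. Whether replicate numbers pair the samples is not given in the sources used here. The deviations of same-numbered replicates from their group means correlated at 0.0634, 0.0998, and -0.0534. With 3 replicates per group these values cannot decide it. *BCL2L1* and *BCL2A1* were not called with the replicate block (limma, adjusted p = 0.0652 and 0.0526). With this block there were 848 upregulated and 762 downregulated DE genes, 4 of the 10 genes and 20 genes of the lists were upregulated, and with the block and the GC correction there were 1481 and 1230, with 4 of the 10 genes and 2 downregulated genes of the lists. Depth limits *REL*, which had as few as 33 reads in a library.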

Other observations

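The 5 tested genes whose scaled log2 values correlated most with those of *NFKBIA* over the 6 libraries were *PRKRIP1* (Pearson's r = 0.998), *SNHG29* (0.998), *TIMM44* (0.997), ENSG00000261061 (0.996), and *CIDECP1* (0.996), a gene named as a pseudogene. They were the highest of all tested genes, the libraries of both groups enter each r, and so the values are a description. All were upregulated DE genes, with log2 fold changes from 0.41 for *PRKRIP1* to 1.02 for ENSG00000261061. In each of the 5 genes, as in *NFKBIA*, case replicate 1 was the highest library and control replicate 2 the lowest. None belongs to the lists of the NF-κB pathway used here.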
